A study of Rattus norvegicus with 6 samples.

Results

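The 10 genes described here encode enzymes that attach a sugar or a sulfate group to small molecules in the renal cortex of rats treated with tricresyl phosphate. That compound is an organophosphate ester found in plastics, lubricants and flame retardants. They are the UDP-glucuronosyltransferases Ugt1a1, Ugt1a6, Ugt1a7c, Ugt2b1 and Ugt2b35, the related UDP-galactose enzyme Ugt8, and the sulfotransferases Sult1a1, Sult1b1, Sult1d1 and Sult2b1. Probes were assigned to them when the transcript accession in the array files matched 1 of the 10 genes in RefSeq. This gave 17 probes for 9 of the 10 genes among 61537 non-control probes, and no probe matched Ugt1a7c. Of the 17 probes, 12 stood well above background on 3 or more of the 6 arrays, and these 12 cover 7 of the genes among 31637 genes tested. Only 12432 of these 31637 have a gene symbol. The rest are transcript accessions or probes without a symbol, each counted as a gene below, and several may belong to the same gene.

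The study compared 3 rats dosed for 4 weeks with tricresyl phosphate (200 mg/kg/day) with 3 rats dosed for as long with corn oil, the vehicle. All 6 were male Sprague-Dawley rats of the Crl:CD(SD) stock, 5 weeks old when purchased and kept on a basal diet with tap water. Total RNA of each animal's renal cortex was labelled with the dye Cy3 and hybridised to its own 1-colour Agilent array, so each replicate is a separate animal. The design holds 1 dose, 1 duration and 1 sex.

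Glucuronidation joins glucuronic acid from UDP-glucuronic acid to phenols, bilirubin, steroids and many drugs, and sulfonation joins a sulfate group from the donor PAPS to phenols, catecholamines, thyroid hormones and sterols. Both make compounds more soluble in water, and transporters then carry the conjugates into urine or bile. In the kidney many of these enzymes are found in the proximal tubule. The Ugt1a genes of the rat are alternative first exons spliced to a common set of downstream exons, so a probe in a downstream exon reports all Ugt1a transcripts together.

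A level below is the log2 processed signal of a probe less the 75th percentile of its array, and a difference is the mean level in tricresyl phosphate animals minus that in corn oil animals. Levels of different probes are not compared with each other. Each array had 41503 to 43823 probes well above background, none was saturated, and the number of arrays limits the precision. Pairs of arrays correlated at 0.988 to 0.990 within groups and at 0.987 to 0.991 between groups. All 12 proximal tubule markers were measured, with mean levels of 5.43 to 5.53 in tricresyl phosphate animals and 5.47 to 5.58 in corn oil animals. Of these markers 8 were lower, with a median difference of -0.10 beside -0.04 over all genes, and none was called. All but Slc22a7 lie in the brightest of 5 classes of signal, where 76.0% of genes were lower and the median difference was -0.07. The summed signal of the 12 markers, scaled to the 75th percentile, was 1613 to 1787 in tricresyl phosphate animals and 1727 to 1855 in corn oil animals. In whole tissue, fewer cells of a type and less RNA per cell cannot be told apart.

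Hepatocyte markers separated some of the animals. Their mean level over 17 of 18 markers was -1.47, -1.28 and -0.50 in tricresyl phosphate animals 1, 2 and 3, against -2.31, -0.10 and -1.86 in corn oil animals 1, 2 and 3. Their summed signal, scaled to the 75th percentile, ranged from 23.9 to 29.1 in tricresyl phosphate animals and from 22.9 to 38.3 in corn oil animals. Tat, the remaining marker, was dim on all 6 arrays, none of which marked it well above background. Tricresyl phosphate animal 3 and corn oil animal 2 were therefore the highest, and a difference of a listed enzyme that moves by over 1.5 times without both is also given without them. Blood cell markers, 6 of 7 measured, differed between the groups: their summed scaled signal was 172.6, 138.7 and 136.0 in tricresyl phosphate animals, against 201.4, 182.0 and 179.9 in corn oil animals. Hbb makes up most of this sum, with levels of 7.06 to 7.40 in tricresyl phosphate animals and 7.46 to 7.63 in corn oil animals. All 6 markers were lower, with a median difference of -0.33, and none was called. The groups did not overlap for Hbb, Alas2 and Epb42 and overlapped for Pf4, Ahsp and Ppbp, beside 11.8% of all genes without overlap. Corn oil animal 1 was the only array on slide 1, the other 5 being on slide 2.

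No gene passed the test. With limma and Benjamini-Hochberg adjustment over the 31637 genes, 0% were called at adjusted p under 0.05, and the smallest adjusted p was 0.118. At an unadjusted limma p under 0.05 there were 1737 genes, or 5.49%, of which 517 were higher and 1220 lower. Of the 7 enzymes tested, 3 were higher and 4 lower, with a median difference of -0.06 beside -0.04 over all genes. None was called, and 2, Ugt1a6 and Ugt1a1, had an unadjusted limma p under 0.05. The groups did not overlap in 11.8% of all genes, and in 7.94% they did not overlap with tricresyl phosphate lower. Among the 7 enzymes they did not overlap in 2, lower for Ugt1a6 and higher for Sult1a1. Over probes the share without overlap was 11.7%, and 4 of the 12 measured enzyme probes were without overlap, 2 lower and 2 higher, all of these being probes of the same 2 genes.

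**Figure D1:**
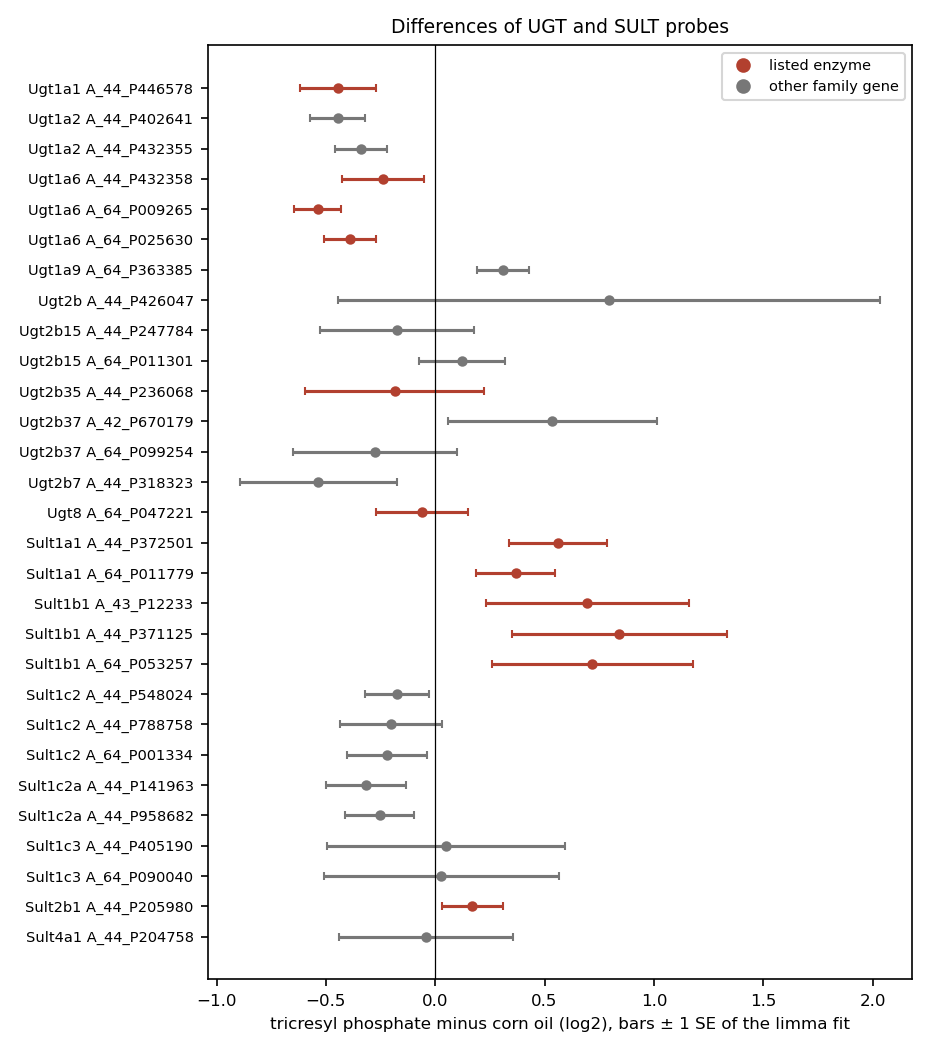
Difference in log2 level, tricresyl phosphate minus corn oil, for each measured probe of the UDP-glucuronosyltransferase and sulfotransferase families, with bars of 1 SE from the limma fit (3 animals a group). Probes of the listed enzymes are red and those of other family genes grey; 6 of 7 Ugt1a probes lie left of 0, and the 5 Sult1a1 and Sult1b1 probes lie right of it.

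Of 7 measured probes of the Ugt1a genes, 6 were lower in tricresyl phosphate animals, none past the test. Over all genes 18741 of 31637 were lower, and 76.0% were lower in the brightest of 5 classes of signal, which holds Ugt1a6 and Ugt1a2. Ugt1a6, which glucuronidates small planar phenols, had the smallest p of the enzymes. Its brightest probe, A_64_P009265, gave levels of 5.37, 5.33 and 5.08 in tricresyl phosphate animals, against 5.79, 5.85 and 5.75 in corn oil animals. Every tricresyl phosphate animal lay below every corn oil animal, and the corn oil animals lay close together. The means were 5.26 ± 0.16 in tricresyl phosphate animals and 5.80 ± 0.05 in corn oil animals (SD, n = 3 each). The difference was -0.54 ± 0.11 (SE; 95% interval -0.80 to -0.28), a ratio of 0.689. It did not pass the test, with a limma p of 0.0022 and an adjusted p of 0.811, and by p it ranked 60 of 31637 genes. The blood cell markers described above were lower in the same animals, and their part in the Ugt1a values was not tested.

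Ugt1a6 had 3 measured probes, for 2 RefSeq transcripts. A_64_P025630, for the same transcript as the brightest, gave 3.46, 3.63 and 3.43 in tricresyl phosphate animals, against 3.73, 3.89 and 4.07 in corn oil animals. These groups did not overlap either, and differed by -0.39 ± 0.12 (SE; adjusted limma p 0.816). The third probe, A_44_P432358, for the other transcript, gave 0.12, 0.65 and -0.001 in tricresyl phosphate animals, against 0.36, 0.58 and 0.54 in corn oil animals. Here tricresyl phosphate animal 2 was the highest of all 6 and the groups overlapped. The third probe's difference was -0.24 ± 0.19 (SE). It was -0.44 without tricresyl phosphate animal 2 and -0.11 without tricresyl phosphate animal 3. Without tricresyl phosphate animal 3 and corn oil animal 2 it was -0.07.

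Ugt1a1, the enzyme that glucuronidates bilirubin, was measured by 1 probe. Its levels were 0.559, 0.632 and 0.929 in tricresyl phosphate animals, against 0.926, 1.064 and 1.461 in corn oil animals. The groups met at 1 point, tricresyl phosphate animal 3 lying just above corn oil animal 1. The means were 0.71 ± 0.20 in tricresyl phosphate animals and 1.15 ± 0.28 in corn oil animals (SD, n = 3 each). The difference was -0.44 ± 0.18 (SE; 95% interval -0.87 to -0.02), a ratio of 0.735, with a limma p of 0.044 and an adjusted p of 0.811. Corn oil animal 3 was the highest, and without it the difference was -0.29.

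Other genes of the locus give context. Ugt1a2 had levels of 3.65, 3.70 and 3.39 in tricresyl phosphate animals, against 3.87, 4.07 and 4.14 in corn oil animals, on probe A_44_P402641. Its groups did not overlap, and the difference was -0.45 ± 0.13 (SE; adjusted limma p 0.811). A further Ugt1a2 probe, A_44_P432355, gave 2.63, 2.74 and 2.65 in tricresyl phosphate animals, against 2.87, 2.94 and 3.22 in corn oil animals. Ugt1a9 was on the other side of 0, with -3.27, -3.01 and -2.96 in tricresyl phosphate animals, against -3.51, -3.28 and -3.39 in corn oil animals. All 3 tricresyl phosphate animals lay above the corn oil animals for Ugt1a9, by a difference of 0.31 ± 0.12 (SE; adjusted limma p 0.811). Over the locus, 6 of 7 measured probes of 4 genes were lower, 4 of them without overlap, and 1 was higher without overlap, against 11.7% of all probes without overlap. In RefSeq's GRCr8 annotation all 8 Ugt1a genes lie on chromosome 9 and have the same end. The positions of the probes within these genes are not used here, so a probe on a shared exon cannot be told from one on a first exon, and the 7 probes are not independent measurements.

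**Figure D2:**
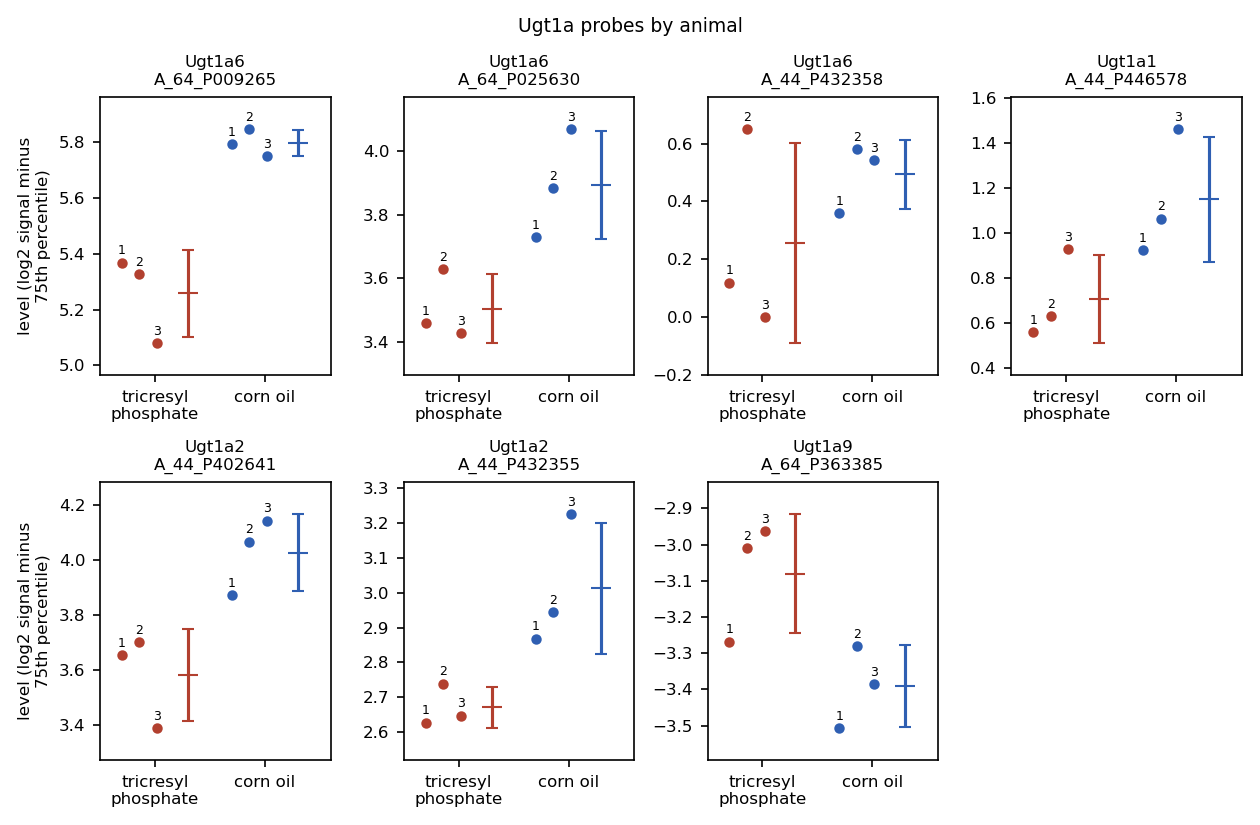
Level (log2 signal minus the array's 75th percentile) of each measured Ugt1a probe in each animal, numbered by replicate, with the mean and SD of the 3 animals beside the points. The tricresyl phosphate animals lie below the corn oil animals on 4 probes and above them on the Ugt1a9 probe; on A_44_P432358 and on the Ugt1a1 probe the groups overlap.

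The promoters of the 4 measured Ugt1a genes are printed because each Ugt1a first exon has a promoter of its own. Each window runs from 250 bases before to 50 after the annotated start, on the plus strand, from RefSeq's GRCr8 promoter sequences. The windows are chr9:96194768-96195067 for Ugt1a6, chr9:96238769-96239068 for Ugt1a2, chr9:96248893-96249192 for Ugt1a1 and chr9:96144536-96144835 for Ugt1a9. Capitals mark the letters of the motifs searched on both strands. These were GCGTG, the core of the xenobiotic response element bound by the aryl hydrocarbon receptor, and TGACNNNGC, the core of the antioxidant response element bound by NRF2; no matches overlap in these windows.
Ugt1a6: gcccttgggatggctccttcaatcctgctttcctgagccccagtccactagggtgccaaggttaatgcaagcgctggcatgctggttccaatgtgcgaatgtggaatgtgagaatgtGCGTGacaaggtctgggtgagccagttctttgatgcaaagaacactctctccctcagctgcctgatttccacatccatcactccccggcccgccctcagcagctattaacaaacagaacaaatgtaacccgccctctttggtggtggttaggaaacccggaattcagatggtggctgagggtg
Ugt1a2: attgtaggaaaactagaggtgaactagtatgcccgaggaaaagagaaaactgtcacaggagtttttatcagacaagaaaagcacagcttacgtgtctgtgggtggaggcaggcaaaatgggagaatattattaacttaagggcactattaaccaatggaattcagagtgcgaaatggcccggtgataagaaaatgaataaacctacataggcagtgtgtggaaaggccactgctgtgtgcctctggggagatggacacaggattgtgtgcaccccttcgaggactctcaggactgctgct
Ugt1a1: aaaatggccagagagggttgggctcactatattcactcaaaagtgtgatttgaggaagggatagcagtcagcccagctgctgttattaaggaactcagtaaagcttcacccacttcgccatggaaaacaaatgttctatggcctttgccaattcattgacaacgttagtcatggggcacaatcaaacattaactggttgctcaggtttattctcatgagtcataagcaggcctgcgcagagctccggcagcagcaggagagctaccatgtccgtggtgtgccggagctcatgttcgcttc
Ugt1a9: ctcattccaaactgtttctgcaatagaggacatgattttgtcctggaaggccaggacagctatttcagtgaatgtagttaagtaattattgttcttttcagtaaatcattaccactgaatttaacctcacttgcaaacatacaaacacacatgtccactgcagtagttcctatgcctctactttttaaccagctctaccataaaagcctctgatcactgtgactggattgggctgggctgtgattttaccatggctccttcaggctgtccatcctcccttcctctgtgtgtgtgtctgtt

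The Ugt1a6 window holds GCGTG on the plus strand, 133 bases before the start. Neither motif is in the windows of Ugt1a2, Ugt1a1 and Ugt1a9. Ugt1a7c, for which no probe was found, has GCGTG on the minus strand 71 bases before its start. Of 33469 promoters of the same length, 29.7% hold GCGTG and 12.1% hold TGACNNNGC. Of 7 Ugt1a promoters in the same table, 4 hold GCGTG and 0 hold TGACNNNGC. The 4 include Ugt1a3 and Ugt1a8, for which no probe was found. Over both enzyme families 7 of 34 genes hold GCGTG, among them Ugt8 and Sult2b1, and 0 hold TGACNNNGC. These matches describe letters in a window and not binding.

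Genes whose profile over the 6 arrays was nearest to that of Ugt1a6 were ranked by the root mean square distance of their centred levels, over 12411 genes with a symbol. Rrm2, a subunit of ribonucleotide reductase, was the nearest at 0.054, and the nearest 5 also held Tti1 at 0.079, Ndc80, a kinetochore protein, at 0.080 and Acsm1, an acyl-CoA synthetase, at 0.084. Ugt1a6's own root mean square deviation from its mean was 0.285. On the Rrm2 probe used, the levels were 0.62, 0.61 and 0.49 in tricresyl phosphate animals, against 1.09, 1.14 and 0.99 in corn oil animals.

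Ugt2b35 was measured by 1 probe and varied widely within both groups. Its levels were 4.75, 4.53 and 3.53 in tricresyl phosphate animals, against 3.85, 4.55 and 4.97 in corn oil animals. The lowest animal was tricresyl phosphate animal 3, then corn oil animal 1, and the highest was corn oil animal 3. The means were 4.27 ± 0.65 in tricresyl phosphate animals and 4.46 ± 0.57 in corn oil animals (SD, n = 3 each). The difference of -0.19 ± 0.41 (SE; 95% interval -1.18 to 0.81) had an adjusted limma p of 0.934. Its sign depended on single animals: it was 0.19 without tricresyl phosphate animal 3 and 0.07 without corn oil animal 3. Without tricresyl phosphate animal 3 and corn oil animal 2 it was 0.23.

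Probes of 2 relatives of Ugt2b35 on chromosome 14, both named after their values were seen, had their lowest and highest levels in the same animals as Ugt2b35. Other Ugt2b probes did not. Ugt2b37, on probe A_64_P099254, gave 2.69, 2.41 and 1.54 in tricresyl phosphate animals, against 1.93, 2.59 and 2.95 in corn oil animals. Ugt2b15, on probe A_44_P247784, gave 0.53, 0.35 and -0.53 in tricresyl phosphate animals, against -0.22, 0.38 and 0.72 in corn oil animals. On these probes tricresyl phosphate animal 3 was the lowest and corn oil animal 3 the highest. The further Ugt2b37 probe, A_42_P670179, gave -4.58, -2.88 and -3.95 in tricresyl phosphate animals, against -4.60, -3.72 and -4.71 in corn oil animals. Corn oil animal 3 was the lowest on it, and the difference was 0.54 ± 0.48 (SE). The further Ugt2b15 probe, A_64_P011301, gave -1.78, -2.13 and -2.04 in tricresyl phosphate animals, against -2.40, -1.72 and -2.18 in corn oil animals. Corn oil animal 1 was the lowest on it and corn oil animal 2 the highest, with a difference of 0.12 ± 0.20 (SE). Transcripts of this subfamily are alike in sequence, and whether the probes tell them apart was not tested. Ugt2b7 gave -0.49, -0.62 and -0.31 in tricresyl phosphate animals, against 0.64, -0.77 and 0.32 in corn oil animals. Corn oil animal 2 was the lowest of all 6 and the other corn oil animals were the highest. The Ugt2b7 difference was -0.53 ± 0.36 (SE; adjusted limma p 0.813). It was -0.95 without corn oil animal 2 and -0.25 without corn oil animal 1.

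Ugt2b1, which glucuronidates steroids and drugs and is known chiefly from rat liver, was too dim to be tested. Its levels were -7.56, -7.85 and -4.75 in tricresyl phosphate animals, against -6.12 and -8.00 in corn oil animals 2 and 3. Only tricresyl phosphate animal 3 and corn oil animal 1 were marked well above background, and the spot of corn oil animal 1 was also marked as an outlier and left out. That spot had the highest processed signal of the 6 arrays, 363, against 45.0 in tricresyl phosphate animal 3. Gene Ugt2b, likewise named after its values were seen, gave -7.44, -5.31 and -3.68 in tricresyl phosphate animals, against -7.67, -4.13 and -7.01 in corn oil animals on probe A_44_P426047. This probe was well above background on only 3 of 6 arrays. In tricresyl phosphate animal 1 and corn oil animals 1 and 3 it lay below the lowest level well above background. The highest animals were thus tricresyl phosphate animal 3 and corn oil animal 2, which also had the highest mean of the hepatocyte markers. Single markers differed in this. Alb, which encodes the liver protein albumin and is outside the rule for named genes, was highest in the same animals. It had levels of -0.11, -0.15 and 2.21 in tricresyl phosphate animals, against -2.47, 2.62 and -1.61 in corn oil animals. The markers F2, Fga and Apoc3 were instead highest in tricresyl phosphate animal 1, at 1.99, 0.97 and 3.13. The part of hepatocyte transcripts in the Ugt2b and Ugt2b1 values was not tested.

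**Figure D3:**
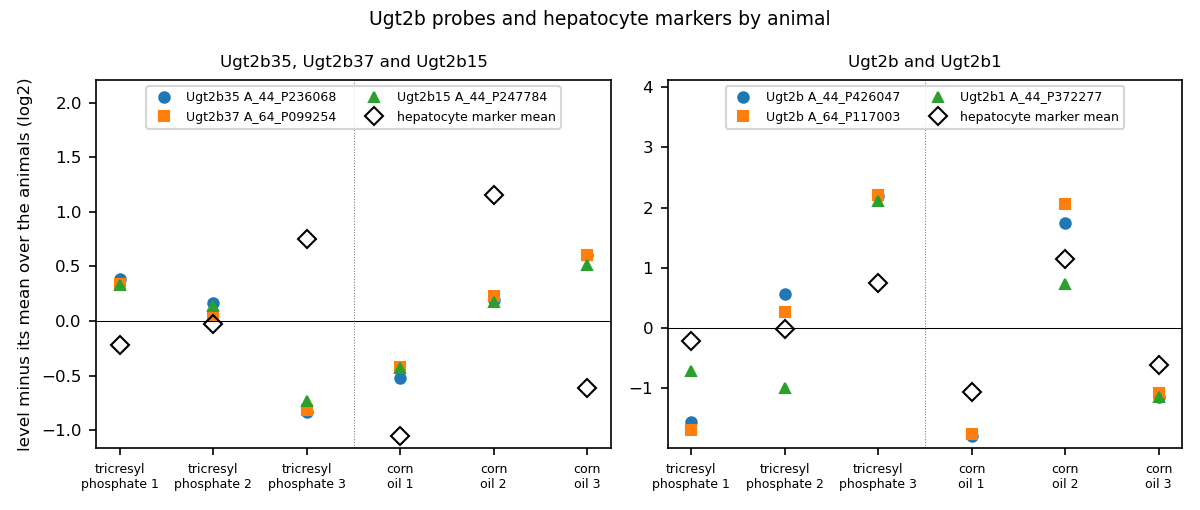
Level of 6 Ugt2b probes in each animal minus its mean over the animals (log2), with the mean of 17 hepatocyte markers as open diamonds; the dotted line parts tricresyl phosphate animals from corn oil animals. The Ugt2b35, Ugt2b37 and Ugt2b15 probes shown are lowest in tricresyl phosphate animal 3, while the Ugt2b and Ugt2b1 points drawn are highest in that animal. The further Ugt2b37 and Ugt2b15 probes, which differ from this, and Ugt2b7 are not drawn. Ugt2b1 has no point for corn oil animal 1, whose spot was the brightest but was marked as an outlier.

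Ugt8, which transfers galactose to ceramide and is known for its part in making myelin lipids, was dim. On probe A_64_P047221 its levels were -4.83, -4.70 and -4.37 in tricresyl phosphate animals, against -4.95, -4.53 and -4.24 in corn oil animals. The groups overlapped throughout, and the difference was -0.06 ± 0.21 (SE; 95% interval -0.58 to 0.46; adjusted limma p 0.959). That sign turned without tricresyl phosphate animal 1, to 0.04, and without corn oil animal 3, to 0.10. Without tricresyl phosphate animal 3 and corn oil animal 2 it was -0.17. A further probe, A_44_P306162, was well above background in 0 of 3 tricresyl phosphate animals and in 2 of 3 corn oil animals. Its measured means were -5.89 in tricresyl phosphate animals and -5.44 in corn oil animals. Single levels were -5.86, -5.86 and -5.96 in tricresyl phosphate animals, against -5.25, -5.99 and -5.07 in corn oil animals. Corn oil animal 2 lay below every tricresyl phosphate animal, so the groups overlapped. Against the lowest signal that counted as well above background, the corn oil mean was 1.25-fold higher. That mean includes an animal not marked well above background, so 1.25 is no firm minimum, and the probe was not tested.

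Sult1a1, a phenol sulfotransferase, was on the other side of 0 from Ugt1a6. On its brightest probe, A_64_P011779, its levels were 2.79, 3.33 and 2.80 in tricresyl phosphate animals, against 2.42, 2.66 and 2.75 in corn oil animals. All tricresyl phosphate animals lay above all corn oil animals, animal 2 well above and the other two just above corn oil animal 3. The means were 2.97 ± 0.31 in tricresyl phosphate animals and 2.61 ± 0.17 in corn oil animals (SD, n = 3 each). The difference was 0.37 ± 0.18 (SE; 95% interval -0.07 to 0.81), a ratio of 1.29, with an adjusted limma p of 0.811. Without tricresyl phosphate animal 2 it was 0.19. The further probe, A_44_P372501, gave 2.29, 2.95 and 2.39 in tricresyl phosphate animals, against 1.66, 2.05 and 2.23 in corn oil animals. These groups did not overlap either, and the difference was 0.56 ± 0.23 (SE; limma p 0.046, adjusted p 0.816). It was 0.36 without tricresyl phosphate animal 2 and 0.40 without corn oil animal 1.

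Sult1b1, which sulfonates phenols and thyroid hormones, had the largest difference in size among the 7 enzymes and also the widest spread. Its brightest probe, A_64_P053257, gave 3.12, 3.95 and 3.75 in tricresyl phosphate animals, against 3.32, 1.88 and 3.47 in corn oil animals. Corn oil animal 2 lay far below the other 5, which overlapped. The means were 3.61 ± 0.43 in tricresyl phosphate animals and 2.89 ± 0.88 in corn oil animals (SD, n = 3 each), a difference of 0.72 ± 0.46 (SE; 95% interval -0.41 to 1.84; adjusted limma p 0.811). Without corn oil animal 2 it was 0.21, and without corn oil animal 2 and tricresyl phosphate animal 3 it was 0.14. The same animal was the lowest on the other probes. A_43_P12233 gave 2.99, 3.76 and 3.75 in tricresyl phosphate animals, against 3.27, 1.79 and 3.35 in corn oil animals. A_44_P371125 gave 1.03, 1.95 and 1.81 in tricresyl phosphate animals, against 1.19, -0.31 and 1.38 in corn oil animals. Without corn oil animal 2 and tricresyl phosphate animal 3 the difference was 0.06 on A_43_P12233 and 0.20 on A_44_P371125. Corn oil animal 2 was also the animal with the highest mean of the hepatocyte markers, and whether these are related was not tested.

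Sult2b1, which sulfonates cholesterol and pregnenolone, had levels of -0.916, -0.733 and -1.115 in tricresyl phosphate animals, against -1.287, -0.991 and -0.997 in corn oil animals. The groups overlapped, because tricresyl phosphate animal 3 lay below corn oil animals 2 and 3. The difference was 0.17 ± 0.14 (SE; 95% interval -0.17 to 0.51; adjusted limma p 0.827). Within slide 2 it was 0.07 and without tricresyl phosphate animal 2 it was 0.08. Without tricresyl phosphate animal 3 it was 0.27, and without that animal and corn oil animal 2 it was 0.32. No array marked its other probe well above background. Sult1d1, which sulfonates catecholamines in rodents, was well above background on 1 of 6 arrays with 1 probe, in tricresyl phosphate animal 2 at -5.32, and on 0 arrays with the other, so it has no fold.

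**Figure D4:**
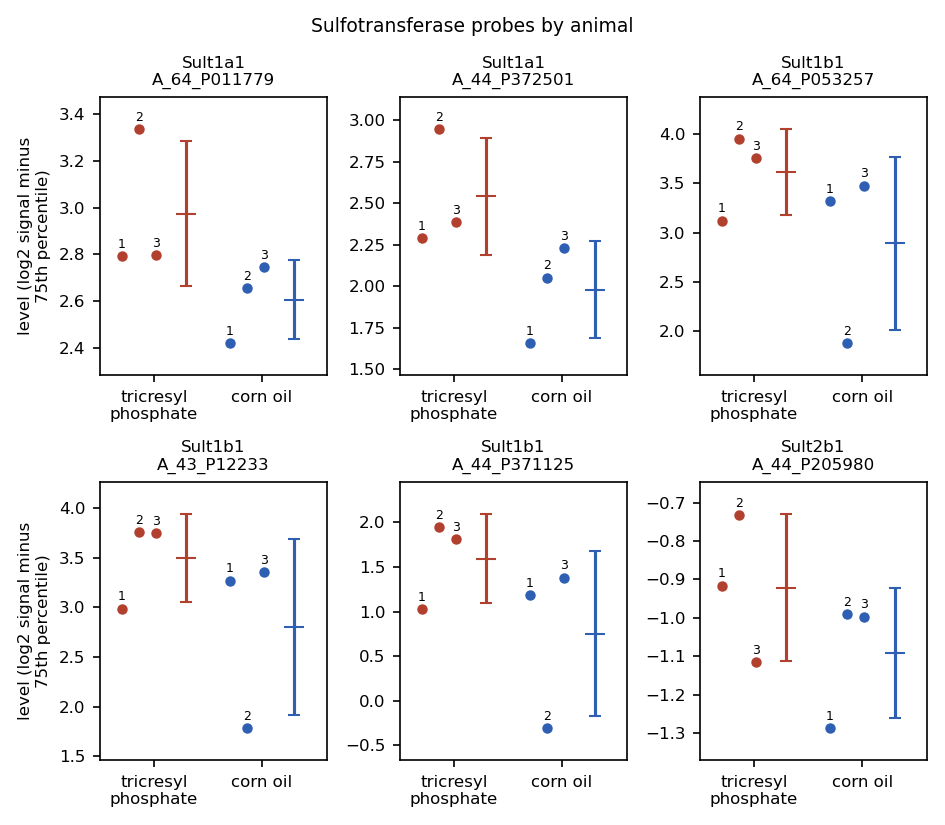
Level (log2 signal minus the array's 75th percentile) of each measured Sult1a1, Sult1b1 and Sult2b1 probe in each animal, numbered by replicate, with the mean and SD of the 3 animals beside the points. Tricresyl phosphate animals lie above corn oil animals on both Sult1a1 probes, and corn oil animal 2 lies far below the other 5 animals on all 3 Sult1b1 probes.

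The remaining members of the families did not pass the test either. Of the other UDP-glucuronosyltransferases listed, 6 of 19 were measured, 2 higher and 4 lower, with a median of -0.22. Of the other sulfotransferases 4 of 13 were measured, 1 higher and 3 lower, with a median of -0.13. Sult1c2a, with a difference of -0.32 ± 0.18, Sult1c2, with -0.22 ± 0.18, and Sult4a1, with -0.04 ± 0.40 (SE), had the smallest p among these. Sult1c2a gave 6.64, 7.13 and 7.33 in tricresyl phosphate animals, against 7.38, 7.35 and 7.32 in corn oil animals. Without tricresyl phosphate animal 1 the Sult1c2a difference was -0.12, and without corn oil animal 2 that of Sult1c2 was -0.08. Sult1e1, Sult2a2, Sult2a6, Sult6b1, Ugt2a1, Ugt2a3 and Ugt2b10 reached no array's well above background mark, and Sult2a1 reached it in corn oil animal 2 alone.

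Genes that supply, reverse or carry the conjugates gave no called difference. Among 11 measured genes of cofactor supply, 6 were higher and 5 lower, with a median of 0.01. Ugdh, which makes UDP-glucuronic acid, gave 2.66, 2.64 and 2.73 in tricresyl phosphate animals, against 2.59, 2.74 and 2.83 in corn oil animals, a difference of -0.04 ± 0.10 (SE). Slc26a2, a sulfate transporter, was lower without overlap at -5.01, -4.96 and -4.81 in tricresyl phosphate animals, against -4.27, -4.50 and -4.70 in corn oil animals. Slc35d2 and Slc35d1, which carry nucleotide sugars, had differences of 0.16 ± 0.14 and 0.13 ± 0.13 (SE).

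All 6 genes of deconjugation were measured, 3 higher and 3 lower. Gusb, the lysosomal beta-glucuronidase, had a difference of -0.01 ± 0.12, while Arsb had -0.33 ± 0.11, Arsa 0.23 ± 0.09 and Sts, the steroid sulfatase, -0.11 ± 0.08 (SE). Arsb, Arsa and Sts were without overlap, as were 11.8% of all genes, and had adjusted limma p of 0.811 to 0.814. These 3 were named because they had the smallest p of the list. The 8 transporters of conjugates were split 4 and 4. Abcc2, which exports glucuronides across the apical membrane, gave 1.77, 1.75 and 1.19 in tricresyl phosphate animals, against 1.89, 2.04 and 1.96 in corn oil animals. Its groups did not overlap, and the difference was -0.39 ± 0.17 (SE; adjusted limma p 0.811), or -0.20 without tricresyl phosphate animal 3. Slco4c1 gave -5.16, -5.20 and -4.64 in tricresyl phosphate animals, against -7.10, -4.26 and -5.40 in corn oil animals. Corn oil animal 1 lay below -5.74, the lowest level well above background on its array. The Slco4c1 difference of 0.59 ± 0.69 (SE) turned to -0.17 without that animal. Slc22a8 had 0.07 ± 0.09 (SE).

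Targets of the aryl hydrocarbon receptor and NRF2, which are known to govern Ugt1a6 in rat liver, were measured for 13 of 18 genes, 5 higher and 8 lower, with a median of -0.04. Cyp1a1, the classical aryl hydrocarbon receptor target, was well above background on 0 of 6 arrays, with processed signals of 4.32 to 5.87. Nqo1, a target of both, gave -2.58, -3.12 and -3.20 in tricresyl phosphate animals, against -2.97, -3.19 and -2.62 in corn oil animals, and its groups overlapped. The glutathione transferases Gsta2 and Gstp1 had differences of -0.29 ± 0.15 and -0.27 ± 0.14, and Ahrr, the receptor's repressor, -0.46 ± 0.26 (SE). Among 12 regulators, 6 were higher and 6 lower. Keap1, the inhibitor of NRF2, was higher without overlap by 0.20 ± 0.08 and Ahr had 0.29 ± 0.21 (SE), and none of the 12 was called.

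Other conjugating enzymes were measured for 13 of 14 genes, 8 higher and 5 lower, with a median of 0.05. Nat8, which acetylates cysteine conjugates in the proximal tubule, gave 5.68, 5.79 and 5.86 in tricresyl phosphate animals, against 6.19, 6.27 and 6.08 in corn oil animals. Its groups did not overlap, and the difference was -0.40 ± 0.10 (SE; limma p 0.006, adjusted p 0.811). Inmt, a methyltransferase, gave 1.20, 2.43 and 1.099 in tricresyl phosphate animals, against 1.24, 1.54 and -0.90 in corn oil animals. Its difference of 0.95 ± 0.71 (SE) was 0.19 without corn oil animal 3.

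The balance of higher and lower genes differed between levels of signal over the whole table. In the brightest of 5 classes of about equal size, which holds Ugt1a6, Ugt1a2, Ugt2b35, Sult1a1 and Sult1b1, 76.0% of genes were lower and the median difference was -0.07. In the dimmest class, which holds Ugt8, 59.7% were lower with a median of -0.08, and in the middle class, which holds Sult2b1, 50.6% were lower with a median of -0.003. In the class of Ugt1a1 55.8% were lower, with a median of -0.02. After quantile normalization the median of the brightest class was -0.00025, and the difference of Ugt1a6 was -0.44.

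**Figure D5:**
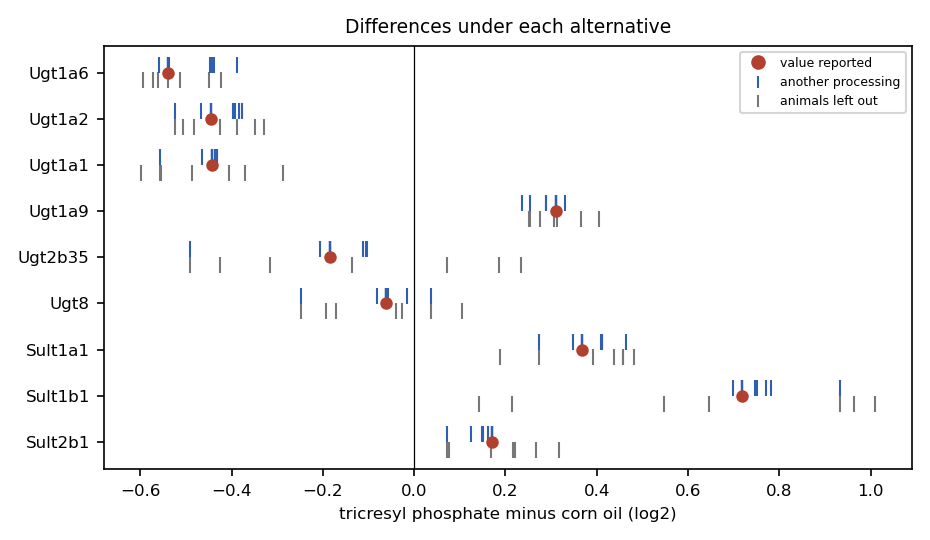
Difference in log2 level, tricresyl phosphate minus corn oil, as reported (circle), under another processing (upper blue ticks) and with animals left out (lower grey ticks), for 9 genes. The values of Ugt1a6, Ugt1a2 and Ugt1a1 stay left of 0 and those of Ugt1a9, Sult1a1, Sult1b1 and Sult2b1 right of it, while those of Ugt2b35 and Ugt8 cross it.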

How the data were processed

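Renal cortex RNA of 6 animals was measured on 1-colour arrays, and samples were grouped by the treatment in the labels. Per the submitters' processing notes, spots were quantified with Agilent Feature Extraction 10.7; the version is 10.7.1.1 per the file headers. Deposited intensity values used here are the linear processed signals, with the authors' median spot and background signals and flags beside them. The authors' value table holds an intensity per probe, which is the processed signal scaled by a constant for each array, with a coefficient of variation of that ratio of at most 0.00129%. Its scale is linear and uncentred, and its column medians lie between 0.1093 and 0.1151.

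From the deposited signals, log2 values less the array's 75th percentile over non-control probes were computed. The 1439 control spots were left out, and 77 outlier spots were set missing. Probes well above background on at least 3 of 6 arrays were kept, 43099 of 61537. Transcript accessions were matched without version to RefSeq's GRCr8 gene table, which gave 1 symbol for 28206 probes and none for 33331. A gene took the brightest of its kept probes by mean level, and a further fit used every kept probe. Two-sided comparisons used limma 3.58.1 (lmFit, eBayes) under R 4.3.3 and Benjamini-Hochberg adjustment over all genes or all probes. The procedure was tested on simulated data. Errors given as SE and the 95% intervals come from these fits.

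The members, lists, tests and rule for named genes were chosen with earlier results of these data known. Named were all 10 enzymes and their probes; of each other list the members that passed or otherwise the 3 with the smallest p; the 5 nearest profiles to Ugt1a6; and Cyp1a1, Nqo1, Ugdh and Gusb. Some genes that this rule names are not reported here. A bound for a gene that no array of 1 group marked above background sets the brighter group's mean against, per array, the lowest level well above background or, where higher, the probe's own level. The alternatives, 19 for each gene, were other normalizations, normexp with an offset of 50 on the median spot signal in place of the mean signal planned, the authors' table, other filters on dim probes, outlier spots kept, the mean of the probes, another variance model, slide or replicate number as a block, and animals left out.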

Additional observations from a re-analysis of the deposited data

How the results depend on the processing

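None of the 7 enzymes or their 12 probes passed the threshold under any alternative. The values under the alternatives are not independent of each other. The slide block gives the same differences as leaving out corn oil replicate 1, and the authors' table is the same signal scaled. A gene's difference mostly repeats that of its brightest probe. Of 441 values of single genes and probes under the alternatives, 429 kept their direction and stayed on the same side of the threshold, and 12 turned direction. These were Ugt2b35, at 0.185 without tricresyl phosphate replicate 3, 0.0715 without corn oil replicate 3 and 0.233 when the animals highest in hepatocyte markers, 1 of each group, were left out, and Ugt8, at 0.0360 under normexp, 0.0365 without tricresyl phosphate replicate 1 and 0.104 without corn oil replicate 3, each as gene and as probe; the cause was not tested. The difference of Ugt1a6 ranged from -0.593 to -0.389 (adjusted limma p 0.693 to 0.945). Genes past the threshold over the whole table numbered 0, but 2 under normexp and quantile normalization and 2 with an intensity trend and robust variance, Galnt3 and an unnamed transcript in both; leaving out 1 animal gave 0 to 1, with Zp2 called without tricresyl phosphate replicate 2 and that transcript without tricresyl phosphate replicate 3. Of 25 other genes named, 5 turned direction without 1 animal, a check chosen after seeing the data: Sult4a1, Ugdh, Gusb and Nqo1, whose differences were near 0, and Slco4c1, which ranged from -0.171 to 1.25. Deviations of same-numbered animals correlated at 0.086, -0.051 and -0.044, and those of differently numbered animals at -0.078 to 0.120. So few animals cannot show whether the replicate numbers pair them. With the replicate block 0 genes were called and 1927 had an unadjusted limma p under 0.05, and Ugt1a6 had a difference of -0.538 (adjusted p 0.753). With the slide block, which leaves the 5 arrays of slide 2, Ugt2b35 had -0.490, Ugt8 -0.248 and Sult2b1 0.0721. With 3 arrays a group, and with Ugt8, Ugt2b1 and Sult1d1 near background, small differences could not be detected.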

Other observations

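The 3 further probes of Rrm2, the gene whose profile was nearest to that of Ugt1a6, gave mixed results. On A_64_P113802 and A_44_P992578 every tricresyl phosphate animal lay below every corn oil animal, with ranges of -5.16 to -4.83 and -5.33 to -5.01 in tricresyl phosphate animals, against -4.71 to -4.48 and -4.91 to -4.35 in corn oil animals. A_43_P17490 gave -4.34, -4.13 and -4.26 in tricresyl phosphate animals, against -4.48, -4.12 and -4.11 in corn oil animals, and its groups overlapped.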
